A study of Lycium barbarum and Lycium ruthenicum with 30 samples.

Results

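Young fruit (S1, the first of 5 stages sampled) of the black-fruited wolfberry Lycium ruthenicum (LR) was compared with S1 fruit of the red-fruited L. barbarum (LB). The comparison took every unigene, a cluster of assembled transcripts that stands for a gene, whose FPKM was 1 or more in at least 3 of the 6 S1 libraries. FPKM counts the fragments that map to a unigene, divided by its length and by the total mapped in that library. Of the 326276 unigenes of the series, 66720 passed. The LR fruit came from wild shrubs and the LB fruit from cultured shrubs of a nursery that were watered regularly, at another place, and each of the 3 libraries of a species came from another tree. Species, place and watering therefore cannot be told apart in any difference below. The libraries are named LB1-1 to LB1-3 and LR1-1 to LR1-3. In the table, the columns of LR carry the letter B and those of LB the letter R, following the legends of the study. The sample titles swap the species, and the legends were followed here.

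Fruit colour in these plants comes from different pigments, carotenoids in the red fruit and anthocyanins in the black fruit. Anthocyanins are made from phenylalanine through the phenylpropanoid pathway, in which phenylalanine ammonia-lyase, cinnamate 4-hydroxylase and 4-coumarate-CoA ligase make the shared precursor, chalcone synthase opens the flavonoid branch, and dihydroflavonol reductase and leucoanthocyanidin dioxygenase act late in it. The other main branch of the pathway makes the alcohols from which peroxidases build lignin. Plants also recognise microbes through receptors at the cell surface and resistance proteins inside the cell, and chitinases cut the chitin of fungal walls.

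The FPKM of a library summed to between 2857060 and 3106350. Between 70455 and 84959 unigenes reached an FPKM of 1 in the LB libraries and between 56689 and 61779 in the LR libraries. Relative depth was estimated from the most frequent ratio of FPKM between LB1-1 and each library, over unigenes of low FPKM in both. With LB1-1 set to 1, it was 1 to 1.22 in LB and 0.664 to 0.807 in LR, so the LR libraries were the shallower ones. Over log2 (FPKM + 0.5), Pearson's r across unigenes was 0.918 to 0.941 between LB libraries, 0.901 to 0.923 between LR libraries and 0.511 to 0.531 between the species. Genes are not independent replicates, and these values are a description.

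More unigenes were higher in LB than in LR. A unigene was called where limma gave an adjusted p under 0.01 and the difference of LR minus LB on the log2 (FPKM + 0.5) scale was at least 1 in size. Of the 66720 unigenes, 28206 were called, which is 42.3%. Of these, 8658 were higher in LR (13.0% of the unigenes tested) and 19548 were higher in LB (29.3%). The median difference was -0.66, so a typical unigene had a lower FPKM in LR. The 3 libraries of one species all lay beyond the 3 of the other in 67.4% of the unigenes. An exact permutation test of a single unigene with 3 libraries against 3 cannot go below p = 0.1, and so the fit across all unigenes was used.

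The balance of the directions depended on the scaling between libraries. LR was the higher species in 30.7% of the calls as deposited. When the libraries were scaled by median of ratios, the median difference became -0.13 and the share 46.4%, with 11483 unigenes called higher in LR (17.4% of those tested) and 13246 higher in LB (20.1%). Quantile normalization gave 47.6%. A scaling changes every difference by about the same amount, so small differences and their directions are read with it in mind, and those of several log2 units are little affected.

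**Figure D1:**
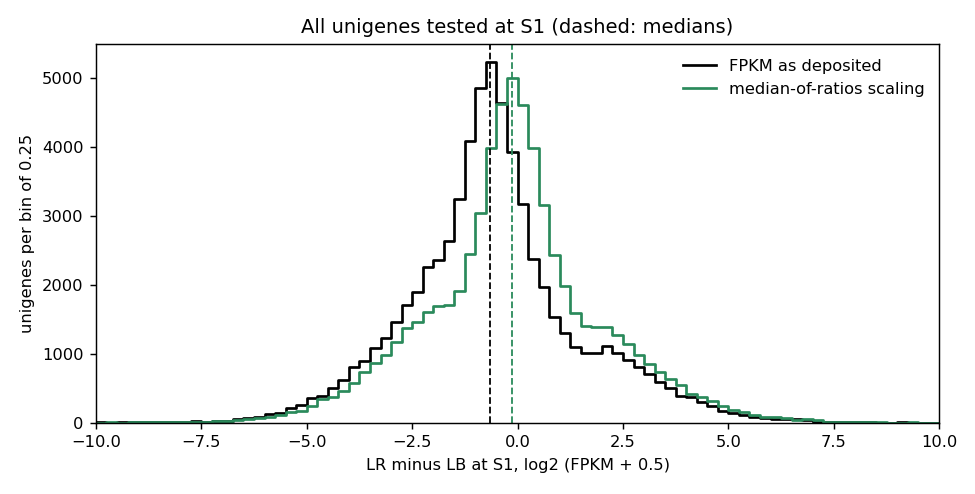
Number of unigenes per bin of 0.25 (vertical axis) by the difference of LR minus LB at S1 in log2 (FPKM + 0.5) (horizontal axis), as deposited and after median-of-ratios scaling, with dashed lines at the medians. The median lies at -0.66 as deposited and at -0.13 after scaling, and a shoulder of unigenes higher in one species stands on either side.

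The filter decided part of these counts. In 33380 unigenes the FPKM was 1 or more in all 6 libraries, and 25.5% of them were called, 1575 higher in LR and 6951 higher in LB. A further 14765 passed with libraries of both species, of which 17.3% were called. The remaining unigenes reached an FPKM of 1 in only one species, 11731 in LB and 6844 in LR. They had to differ, and 92.1% and 92.2% of them were called. Among the 48145 unigenes that passed through both species, 2345 (4.87%) were higher in LR and 8739 (18.2%) were higher in LB, with a median difference of -0.54.

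Large differences were found in both directions. A difference of 4-fold or more was called in 6962 unigenes higher in LR and 12824 higher in LB, and one of 64-fold or more in 328 and 409. At 1024-fold or more, 36 were higher in LR and 28 in LB. Fold changes are on the log2 (FPKM + 0.5) scale, which understates the change of low unigenes.

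Many unigenes had a value of 0 throughout one species while they had an FPKM of 1 or more in all 3 of the other. There were 6657 of these in LB and 4061 in LR, with median mean FPKMs of 4.37 and 4.45. The LR libraries were the shallower ones, at a relative depth of 0.664 to 0.807 against 1 to 1.22 in LB. The counts are therefore not on an equal footing, and how far depth accounts for the gap was not tested. Of the LB unigenes, 3834 were also listed at 0 in all 12 later LR libraries, and of the LR unigenes 3015 in all 12 later LB libraries. In 40.5% of the LB and 42.4% of the LR unigenes, another unigene of the same assembly component, a group of related contigs, had an FPKM of 1 or more in all 3 libraries of the other species. For those, a related transcript was present in the species in which the unigene was listed at 0.

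A few very abundant unigenes took a large share of the LR libraries. These were chosen after their values were seen, by a mean of at least 10000 FPKM in one species and under 1% of that in the other. In LR, 27 such unigenes took 32.1% ± 7.09 (SD, n = 3) of the summed FPKM, and 40.3% in LR1-3. They took no more than 0.000405% in LB. In LB, 4 such unigenes took 2.93% ± 0.375. FPKM is relative to the mapped fragments of the library, of which these unigenes are part. With the libraries rescaled without them, 11771 unigenes were called higher in LR and 13100 higher in LB.

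The unigene TRINITY_DN65867_c1_g1 was among the most abundant in LR, with 49323, 36527.6 and 103580 FPKM, against 0.16, 0 and 0.08 in LB. TRINITY_DN74285_c0_g2 had 42030.8, 44334.7 and 39527.8 FPKM in LR and was listed at 0 in all 3 LB libraries. On the LB side, TRINITY_DN53915_c0_g1 had 16510.7, 21047.1 and 11842.9 FPKM and was listed at 0 in LR. None of these unigenes was annotated in the sources used here. The most abundant unigene of both species, TRINITY_DN85098_c26_g1, had 153121, 151433 and 127861 FPKM in LB and 244415, 267759 and 155651 in LR. Its groups did not overlap, but it was not called (difference 0.59, limma adjusted p = 0.11). With median-of-ratios scaling it was called (1.14, adjusted p = 0.006).

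Unigenes for EIX receptor 1/2, RPM1, a chitinase, a GST and PGK were listed at 0 in every LB library and present in every LR library. They were picked by the study for their difference in these libraries and matched to unigenes through the study's own fold changes, so their values describe the comparison and are not independent evidence of its direction. The unigene so matched to EIX receptor 1/2, which in tomato recognises a xylanase of a fungus, was TRINITY_DN95128_c2_g1. It had 29.23, 22.6 and 21.75 FPKM in LR and was listed at 0 in the 3 LB libraries. The fitted difference was 5.63 (SE 0.23, limma adjusted p = 3.4e-05). With one species at 0, the size of such a difference depends on the offset and gives no fold.

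TRINITY_DN73733_c4_g1, matched in the same way to RPM1, a resistance protein that in Arabidopsis responds to bacterial effectors, had 17.71, 16.82 and 17.24 FPKM in LR. It was listed at 0 in LB (difference 5.15, limma adjusted p = 3.3e-05). The 3 LR libraries lay close together. The chitinase TRINITY_DN77127_c1_g3 had 19.15, 13.32 and 94.92 FPKM in LR and was listed at 0 in LB (5.89, SE 0.73, adjusted p = 0.00077). Its values spread widely, and LR1-3 was far above the others. A second unigene of that component, TRINITY_DN77127_c1_g2, was present in both species, at 43.67, 34.99 and 21.01 FPKM in LB and 419.91, 266.32 and 398.67 in LR. It was also called higher in LR (3.46, adjusted p = 0.00024), and the sum over the component was higher by 3.61.

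The glutathione S-transferase (GST) unigene TRINITY_DN100219_c3_g1, of a family that joins glutathione to other compounds and of which some members in other plants carry anthocyanins to the vacuole, had 8.03, 5.63 and 4.01 FPKM in LR. It was listed at 0 in LB (3.63, limma adjusted p = 0.00013). Phosphoglycerate kinase (PGK), an enzyme of glycolysis, was matched likewise, and its S5 values, given below, put this match in doubt. TRINITY_DN74949_c3_g2 had 49.56, 59.76 and 46.6 FPKM in LR and was listed at 0 in LB (6.71, adjusted p = 1.9e-05). TRINITY_DN74949_c3_g1, of the same component, had 44.46, 50.73 and 54.41 in LB and 29.88, 24.89 and 25.54 in LR (-0.88, not called), and carries no annotation in the sources used here. Summed over the component, LB had 44.5 to 54.4 FPKM and LR 72.1 to 84.7. That sum was not called (0.63, adjusted p = 0.014).

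**Figure D2:**
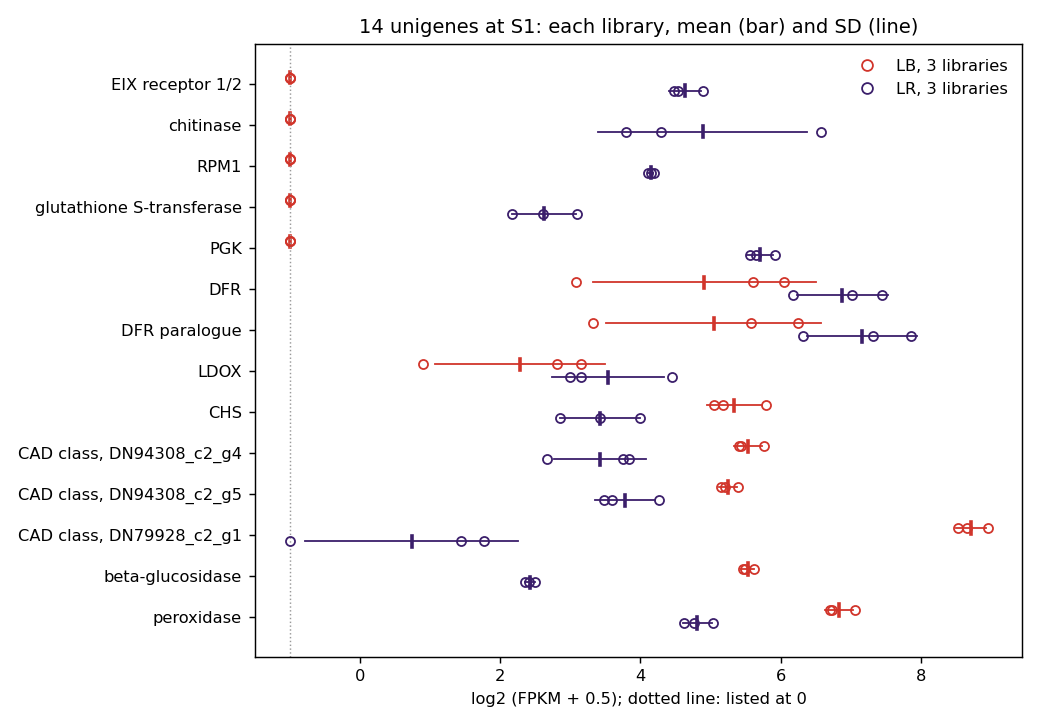
Level of 14 unigenes in log2 (FPKM + 0.5) (horizontal axis) in each S1 library (circles), with the mean (bar) and SD (line) of the 3 libraries of LB and of LR, and a dotted line where a unigene is listed at 0. The first 5 unigenes sit on the dotted line in LB, while CHS and the unigenes below it lie higher in LB, with no overlap of the groups.

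The list named Plant-pathogen interaction leaned the same way. The study chose this and the other pathway lists on these libraries, so their counts are no independent evidence, and at most 18 names per species could be read from a list. Of 18 unigenes, 16 were tested, and 7 were higher in LR and 1 in LB, with a median difference of 1.45. The background was 13.0% and 29.3%. Of the 16, 3 passed the filter through LR alone. Among the 13 that passed through both species, 4 were higher in LR and 1 in LB, with a median of 0.82. The unigene higher in LB, TRINITY_DN83221_c5_g1, had 45.79, 40.82 and 48.33 FPKM in LB and 14.38, 15.38 and 12.2 in LR. EIX receptor 1/2 is on this list too. On the scaled values, 8 were higher in LR and 1 in LB.

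Glutathione metabolism, the pathway of the main soluble antioxidant of plant cells, had 6 of 18 tested unigenes higher in LR and 2 higher in LB, with a median of 0.06, against the background of 13.0% and 29.3%. Among the 15 that passed the filter through both species, 3 were higher in LR and 2 in LB, and the median was -0.76, so its sign turned. The largest difference toward LR was that of TRINITY_DN83494_c1_g5, with 0, 0.33 and 0 FPKM in LB and 8.24, 10.1 and 12.19 in LR (4.16, limma adjusted p = 1e-04). TRINITY_DN81207_c3_g2 lay the other way, at 113.66, 43.77 and 185.72 FPKM in LB and 9.72, 6.05 and 4.36 in LR (-3.83), and was not called without LB1-1 (limma adjusted p = 0.011). Of the 6 higher in LR, 3 passed the filter through LR alone.

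The called phenylpropanoid unigenes were nearly all higher in LB. The study's table of this pathway was, like the lists, chosen on these libraries, so its counts are no independent evidence. It names 113 unigenes in 14 enzyme classes, and 104 were tested. Of these, 2 were called higher in LR and 44 higher in LB, against a background of 13.0% and 29.3%, and 58 were not called. The median difference was -1.42 against -0.66 over all unigenes. Among the 91 that passed through both species, 2 were higher in LR and 32 in LB, with a median of -1.13. Scaling moved these counts to 4 and 29 and the median to -0.89. Without LB1-1, 30 of the unigenes were called in place of 46.

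Phenylalanine ammonia-lyase (PAL), which takes the amino group off phenylalanine, was the only class whose summed FPKM lay higher in all LR libraries, at 293 to 390 against 190 to 283 in LB. One of its 4 unigenes was called. It was TRINITY_DN66948_c1_g4, with 13.37, 19.18 and 13.02 FPKM in LB and 58.38, 39.5 and 62.1 in LR (1.77, SE 0.25, limma adjusted p = 0.0013). The sum over the component of that unigene was lower in LR by a fitted -1.18 and was not called. The other 3 PAL unigenes had differences of 0.17 to 0.72 and were not called. With median-of-ratios scaling, 1 of them, TRINITY_DN65745_c2_g1, was called higher in LR (1.25, limma adjusted p = 0.0057). As deposited, the sums over the components of these 3 had differences of -0.43, -0.04 and 0.49, and none was called. The higher class sum in LR therefore holds for the listed unigenes and not for their components. Cinnamate 4-hydroxylase, the next enzyme, had 2 unigenes and no call. Of 8 unigenes of 4-coumarate-CoA ligase, which activates the acid for all later branches, 3 were higher in LB, against 29.3% of all unigenes tested. The summed FPKM of that class overlapped between the species.

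Caffeoyl-CoA O-methyltransferase, a methylating enzyme of the lignin branch, summed to 2037 to 4127 FPKM in LB and 1123 to 1871 in LR, with 2 of 6 unigenes called higher in LB. After scaling, these sums overlapped and none of the 6 was called. Of the pair, TRINITY_DN64868_c4_g5 also lost its call without LB1-1, LB1-2, LR1-1 or LR1-3 (limma adjusted p = 0.015 to 0.024). Of the 2 unigenes of caffeoylshikimate esterase, which releases caffeate, TRINITY_DN99848_c3_g6 was called higher in LB, at 301.12, 374.95 and 236.23 FPKM against 77.36, 89.54 and 90.65. The single cinnamoyl-CoA reductase unigene, TRINITY_DN84683_c0_g2, had 18.84, 12.73 and 3.8 FPKM in LB and 5.47, 19.39 and 10 in LR, and its groups overlapped. In the hydroxycinnamoyltransferase class 2 of 3 tested unigenes were higher in LB. Of the pair, 1 passed the filter through LB alone, and after scaling none of the class was called. In the coumaroylshikimate hydroxylase class 1 of 5 was higher in LB. That unigene passed the filter through LB alone, and none of the 3 that passed through both species was called. In the coniferyl-aldehyde dehydrogenase class 1 of 4 was higher in LB, and in the coniferyl-alcohol glucosyltransferase class 1 of 3. None of these classes had a unigene higher in LR. Of all unigenes tested, 29.3% were higher in LB and 13.0% in LR.

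The cinnamyl alcohol dehydrogenase (CAD) class, whose enzymes make the alcohols of lignin, held 10 unigenes, all tested. Of these, 7 were higher in LB, against 29.3% of all unigenes tested. Of the 10, 1 passed the filter through LB alone, and among the 9 that passed through both species 6 were higher in LB. The summed FPKM of the class was 1121 to 1532 in LB and 267 to 329 in LR. TRINITY_DN69029_c0_g2 had 283.29, 321.66 and 256.08 FPKM in LB and was listed at 0 in LR (-9.16, limma adjusted p = 3.6e-06). TRINITY_DN79928_c2_g1 had 403.83, 492.86 and 368.35 FPKM in LB and 2.91, 0 and 2.23 in LR (-7.97, SE 0.73, adjusted p = 0.00022). Both matched 8-hydroxygeraniol dehydrogenase, an enzyme of monoterpenoid synthesis in other plants, so their place in the lignin branch rests on the class name. The 2 unigenes whose match was named a putative CAD, TRINITY_DN75738_c2_g2 and TRINITY_DN71187_c0_g1, were not called (-0.36 and -0.80). TRINITY_DN69029_c1_g1 lay in the other direction, at 0.93, 2.38 and 0.98 FPKM in LB and 11.27, 3.7 and 16.84 in LR, and was not called (2.38, adjusted p = 0.015).

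The other unigenes of the CAD class measured by qPCR in the study were TRINITY_DN94308_c2_g4 and TRINITY_DN94308_c2_g5. The study's qPCR list names both, and TRINITY_DN79928_c2_g1, only as alcohol dehydrogenase. TRINITY_DN94308_c2_g4 had 53.7, 41.93 and 42.81 FPKM in LB and 13.85, 13.02 and 5.84 in LR. TRINITY_DN94308_c2_g5 had 34.84, 41.3 and 36.28 in LB and 18.8, 10.64 and 11.61 in LR. Their groups did not overlap. The differences were -2.11 (SE 0.34, limma adjusted p = 0.0025) and -1.46 (SE 0.24, adjusted p = 0.0027). The first lost its call when any LB library was left out (adjusted p = 0.012 to 0.015), and so did the second (0.012 to 0.014), which also lost it without LR1-3 (0.01). On the scaled values the second was -0.93 and was not called.

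The classes that act on the finished alcohols held the most unigenes. Peroxidases, which couple the alcohols into lignin, summed to 1731 to 1952 FPKM in LB and 482 to 1152 in LR. Of 28 tested, 1 was higher in LR and 10 in LB, against 13.0% and 29.3% of all unigenes tested. Of the 28, 4 passed the filter through LB alone. Among the 24 that passed through both species, 1 was higher in LR and 6 in LB, against 4.87% and 18.2% of all such unigenes. TRINITY_DN65507_c0_g1, which matched a lignin-forming anionic peroxidase, had 114.32, 70.1 and 75.96 FPKM in LB and 0, 0.07 and 0.23 in LR (-7.17, SE 0.28, limma adjusted p = 3.1e-05). TRINITY_DN75127_c1_g1 had 132.65, 103.94 and 105.87 in LB and 26.8, 32.35 and 24.16 in LR (-2.02, SE 0.18, adjusted p = 0.00019). The peroxidase higher in LR was TRINITY_DN87965_c1_g3, with 0, 0 and 1.14 FPKM in LB and 31.78, 33.8 and 7.33 in LR (4.79, SE 0.76, adjusted p = 0.0023). It lost its call without LB1-1, LB1-2, LR1-1 or LR1-2, with differences of 4.42 to 4.50 and adjusted p-values of 0.01 to 0.013.

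Beta-glucosidases, which release compounds from their glucosides, had the lowest median of the large classes, -1.94. None of 25 was higher in LR and 14 were higher in LB, against 13.0% and 29.3% of all unigenes tested. Of the 25, 5 passed the filter through LB alone and had to lie higher there. Among the 20 that passed through both species, 9 were higher in LB, against 18.2% of all such unigenes, and the median was -1.69. The summed FPKM of the class was 719 to 1060 in LB and 125 to 171 in LR. TRINITY_DN91570_c3_g1 had 161.07, 321.3 and 147.33 FPKM in LB and was listed at 0 in LR (-8.62). TRINITY_DN84985_c3_g2 had 90.55, 198.48 and 72.36 in LB and 0.78, 0.28 and 0.19 in LR (-6.96). Both matched vicianin hydrolase, which in vetch splits a cyanogenic glucoside. TRINITY_DN80120_c0_g1, measured by qPCR in the study, had 43.5, 44.65 and 48.8 FPKM in LB and 4.83, 4.64 and 5.14 in LR (-3.10, SE 0.14, limma adjusted p = 3.9e-05). Over the 14 classes, the sums of LB lay above those of LR without overlap in 10, of LR above LB in 1, and overlapped in 3. After scaling these were 7, 1 and 6.

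**Figure D3:**
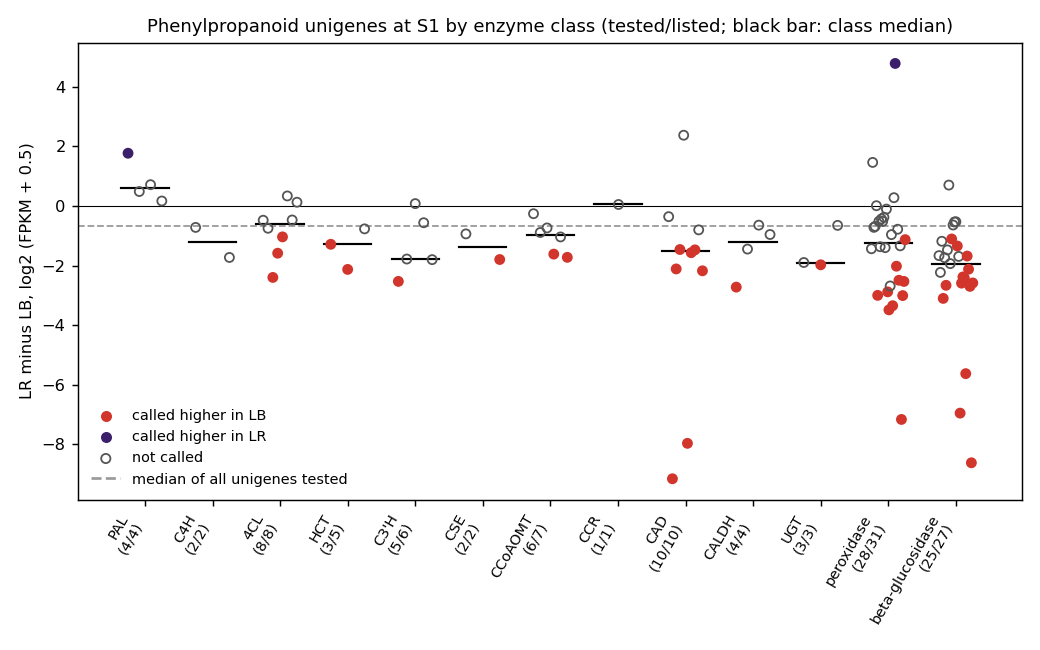
Difference of LR minus LB at S1 in log2 (FPKM + 0.5) (vertical axis) of the tested phenylpropanoid unigenes of 13 enzyme classes in the order of the pathway, with the class median (black bar) and the median of all unigenes tested (dashed line, -0.66). The unigenes called higher in LB lie below 0, among them 14 beta-glucosidases and 10 peroxidases, and 1 PAL and 1 peroxidase unigene are called higher in LR.

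The flavonoid and anthocyanin unigenes showed no common direction at S1. Chalcone synthase (CHS), TRINITY_DN73389_c1_g2, had 35.72, 32.52 and 54.58 FPKM in LB and 15.44, 10.28 and 6.74 in LR. It was called higher in LB (-1.91, SE 0.35, limma adjusted p = 0.004). The call was lost when LB1-1, LB1-2, LB1-3 or LR1-2 was left out, with adjusted p-values of 0.012 to 0.018. It was also lost in the fit of all 30 libraries (0.014) and with the replicate number as a block (0.015). Quantile normalization (0.01) and rescaling without the abundant unigenes (0.013) lost it too. The sum over the CHS component was not called (-1.55, limma adjusted p = 0.038). Dihydroflavonol reductase (DFR), TRINITY_DN65703_c4_g1, had 48.04, 8.01 and 65.26 FPKM in LB and 173.43, 129.09 and 71.48 in LR. All LR values lay above the LB ones, but LB1-2 was far below the other LB libraries, and the difference was not called (1.97, SE 0.82, adjusted p = 0.081).

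The paralogue of DFR in the same component, TRINITY_DN65703_c4_g2, had similar values, at 46.97, 9.48 and 75.21 FPKM in LB and 230.57, 158.35 and 78.84 in LR (2.11, limma adjusted p = 0.065). In a fit that took its spread from all 30 libraries, both DFR unigenes were called, at limma adjusted p-values of 0.0017 and 0.0011. The study, which used a count model on the same libraries, reports both as slightly higher in LR at S1. Leucoanthocyanidin dioxygenase (LDOX), TRINITY_DN68066_c0_g2, which makes the coloured anthocyanidin, had 8.39, 1.37 and 6.51 FPKM in LB and 21.34, 8.42 and 7.49 in LR (1.25, adjusted p = 0.17). Its groups overlapped, since LR1-3 was below LB1-1. TRINITY_DN68066_c0_g5, of the same component, was called higher in LB (-1.12, limma adjusted p = 0.0012). The sum over that component was not called (-0.32). Of the list Flavonoid biosynthesis, 1 of 18 tested unigenes was higher in LR and 4 were higher in LB, and of Flavone and flavonol biosynthesis none of 15 was higher in LR and 6 were higher in LB. The background was 13.0% and 29.3%. After scaling, the first had 1 and 1. In the second, 3 unigenes passed the filter through LB alone, and of the 12 that passed through both species 3 were called.

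Over the 37 pathway lists, which name unigenes without saying which enzyme each is, more unigenes were called higher in LB than in LR in 31 lists, fewer in 4, and equally many in 2. Over all lists and tables together, 572 of 610 unigenes were tested, and 50 were higher in LR and 149 in LB, with a median of -0.66, the same as over all unigenes. Scaled by median of ratios, LR had the more calls in 14 lists and LB in 12. The balance within most lists therefore followed the scaling, as it did over all unigenes.

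The alkaloid and amino acid lists were read against the same background of 13.0% and 29.3%. In Isoquinoline alkaloid biosynthesis 4 of 23 tested unigenes were higher in LR and 11 in LB, and in Tyrosine metabolism 3 and 7 of 16. Scaling moved the counts to 4 and 8 and to 3 and 4. TRINITY_DN66418_c4_g2, on both lists, had 0.25, 0.2 and 1.89 FPKM in LB and 200.66, 71.38 and 49.41 in LR (6.38, limma adjusted p = 0.00045). The sum over its component had a difference of -0.50 and was not called. TRINITY_DN91381_c1_g1 lay the other way, at 57.42, 37.73 and 70.37 FPKM in LB and 0.11, 0.18 and 0 in LR (-6.51). In Cyanoamino acid metabolism none of 24 was higher in LR and 8 were higher in LB, with a median of -1.20, and 1 and 3 after scaling.

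For lists tied to green tissue and to red pigment, the background was again 13.0% higher in LR and 29.3% higher in LB. Of 18 Photosynthesis unigenes 2 were higher in LR and 1 in LB, with a median of -0.31, or 0.23 after scaling. Of 18 antenna protein unigenes, which bind the chlorophyll that collects light, 1 was higher in LR and 2 in LB. TRINITY_DN72905_c1_g1 of this list had 512.62, 640.81 and 810.76 FPKM in LB and 128.36, 142.78 and 81.1 in LR (-2.49), while TRINITY_DN71505_c0_g1 had 3.53, 1.86 and 4.53 in LB and 36.63, 28.25 and 49.78 in LR (3.38). Carotenoid biosynthesis had 2 of 15 higher in LR and 4 in LB, close to the background, and 3 and 1 after scaling. The largest of these, TRINITY_DN92833_c0_g2, had 147.22, 140.79 and 281.2 FPKM in LB and 0, 1.32 and 0 in LR (-7.87, limma adjusted p = 1e-04).

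The following hormone, sugar and lipid lists had shares of calls near or below the background of 13.0% and 29.3%. Plant hormone signal transduction had 4 of 33 higher in LR and 10 in LB, Zeatin biosynthesis, the cytokinin pathway, 1 and 7 of 30, and Starch and sucrose metabolism 1 and 6 of 27. After scaling these were 6 and 6, 2 and 5, and 4 and 4. Of the lists that lead to the hormone jasmonate, alpha-Linolenic acid metabolism had none of 24 higher in LR and 7 higher in LB. Fatty acid elongation had 2 of 15 higher in LR and none in LB. Its TRINITY_DN92129_c3_g1 had 1.83, 3.75 and 4.04 FPKM in LB and 194.27, 225.08 and 129.83 in LR (5.65, limma adjusted p = 5.6e-05). In Sesquiterpenoid and triterpenoid biosynthesis, TRINITY_DN101070_c2_g2 had 295.44, 274.9 and 266.61 FPKM in LB and 1.13, 1.58 and 3.28 in LR (-6.90). Ribosome, a list of housekeeping unigenes, had none of 18 higher in LR and 3 in LB.

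**Figure D4:**
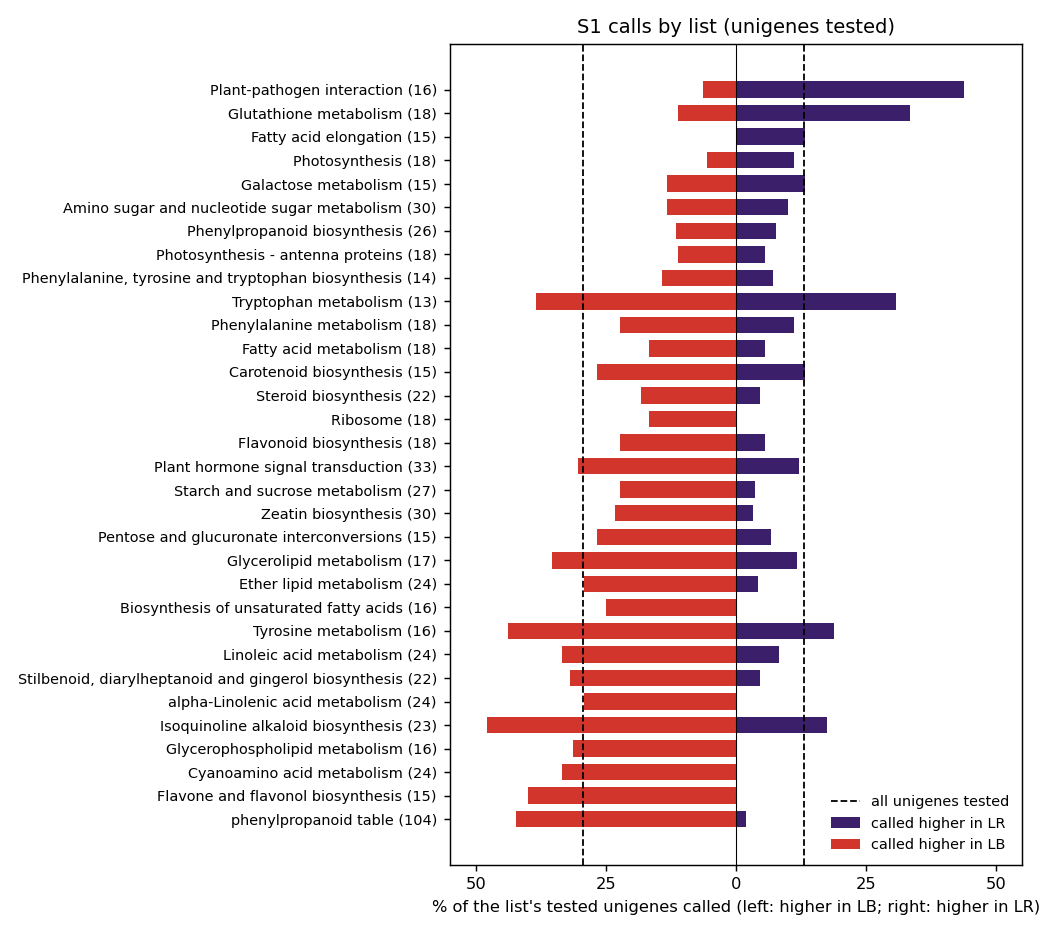
Share of the tested unigenes of each list called higher in LB (left) and in LR (right), in percent, with the number tested in brackets and dashed lines at the shares over all unigenes tested (29.3% and 13.0%). The lists with the fewest unigenes are left out, and Plant-pathogen interaction reaches farthest to the right while the phenylpropanoid table has almost no bar on that side.

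A de novo assembly of both species can split a gene into unigenes that each draw the reads of one species, so the FPKM was also summed over each Trinity component. Of 47806 components tested, 15535 were called (32.5%), 4502 higher in LR (9.42%) and 11033 higher in LB (23.1%). With median-of-ratios scaling, 6320 were higher in LR and 6540 higher in LB. Without LB1-3, 10229 were called. In 1634 components one unigene was called higher in LR and another higher in LB, and the sum was called in 31.2% of them. Of the 90 named unigenes that were called, 16, the GST among them, were the only unigene of their component, so that the sum was the unigene itself. Of the other 74, the sum was called in the same direction in 48, not called in 26, and called in the opposite direction in none. EIX receptor 1/2, RPM1 and the chitinase were among the 48 and PGK among the 26. In part of the 74, RPM1 among them, no other unigene of the component was tested, so the sum rested mainly on the named unigene. For EIX receptor 1/2, the LR sums of 29.23, 27.57 and 21.75 FPKM were close to the unigene's own 29.23, 22.6 and 21.75. For such components the same direction was largely given in advance, and the sum is no separate check.

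The differences at S1 were set against those of S2, the next stage, and S5, ripe fruit. Of the S1 calls, 15908 were called in the same direction at S2, which is 56.4% of the S1 and 63.1% of the S2 calls, and 41 in the opposite direction. At S5 these were 15609 (55.3% and 54.1%) and 210. The test of the change itself, (LR minus LB at S1) minus (LR minus LB at the other stage), called 1165 unigenes against S2 (1.75%) and 5228 against S5 (7.84%). Without LR1-1 the S2 count was 769.

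Unigenes of the CAD class differed between S1 and S2. The mean of TRINITY_DN94308_c2_g4 in LB was 46.1 ± 6.56 FPKM at S1 and 1.01 ± 0.199 at S2 (SD, n = 3), and was 10.9 ± 4.40 and 8.27 ± 2.71 in LR. The difference was thus -2.11 at S1 and 2.49 at S2, and the change was -4.61 (limma adjusted p = 6.1e-05). TRINITY_DN79928_c2_g1 had differences of -7.97 at S1 and -3.19 at S2, and the change was -4.78 (adjusted p = 0.0059). Of the 104 phenylpropanoid unigenes, 20 had a changed difference against S2 and 34 against S5. Over all unigenes tested, the shares were 1.75% and 7.84%. The study chose its phenylpropanoid table on these same libraries and stages, so the higher share is a description and no independent evidence of a change with stage.

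Of S1, S2 and S5, the stages compared here, the anthocyanin unigenes and the GST had their large differences at S5. S3 and S4 were not compared here, and the study reports DFR and LDOX as already well above LB in LR at both. DFR, TRINITY_DN65703_c4_g1, was listed at 0 in LB at S5 and had a mean of 1662 ± 202 FPKM in LR (SD, n = 3), and its S1 difference lay below that of S5 by a fitted -9.73 (limma adjusted p = 1.5e-06). LDOX, TRINITY_DN68066_c0_g2, had 1.31 ± 0.266 in LB and 2948 ± 706 in LR at S5 (-9.41). The GST unigene TRINITY_DN100219_c3_g1 was at 1018 ± 154 in LR at S5 and listed at 0 in LB (-7.35). CHS, TRINITY_DN73389_c1_g2, was the higher one in LB at S1 and in LR at S5, where it had 39.3 ± 8.99 and 3414 ± 1606 FPKM (-8.26, adjusted p = 3.2e-07).

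EIX receptor 1/2, TRINITY_DN95128_c2_g1, had means of 24.5 ± 4.10 FPKM at S1, 4.39 ± 3.02 at S2 and 0.72 ± 0.392 at S5 in LR (SD, n = 3), and its difference was larger at S1 than at S5 by 4.40 (limma adjusted p = 5.3e-05). The chitinase TRINITY_DN77127_c1_g3 had 42.5 ± 45.5 at S1, 67.9 ± 14.9 at S2 and 0.25 ± 0.277 at S5. RPM1, TRINITY_DN73733_c4_g1, had 17.3 ± 0.445, 18.2 ± 6.45 and 39.5 ± 3.91 in LR, with differences of 5.15, 5.15 and 6.32. PGK, TRINITY_DN74949_c3_g2, had nearly the same difference at all 3 stages (6.71, 6.59 and 6.72).

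**Figure D5:**
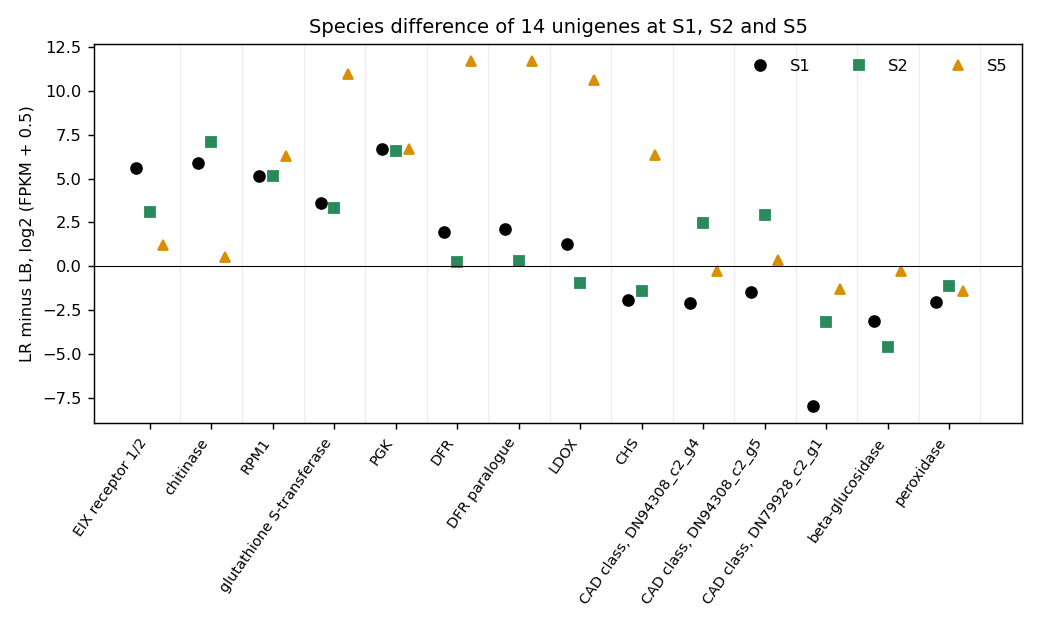
Difference of LR minus LB in log2 (FPKM + 0.5) (vertical axis) of 14 unigenes at S1, S2 and S5. DFR, its paralogue, LDOX and GST lie above 10 at S5 and below 4 at S1, while EIX receptor 1/2 is highest at S1 and the unigenes of TRINITY_DN94308 change sign between S1 and S2.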

How the data were processed

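RNA of S1 fruit of LR and LB was sequenced in 3 libraries per species, each from another tree. Reads were filtered by the authors with Cutadapt, which fed a de novo assembly with Trinity. They then clustered the transcripts with Corset and deposited FPKM per unigene to 2 decimals, computed from uniquely located clean reads. Per the labels, Bowtie2 was among the tools, with a version not given in the sources used here. No scaling between libraries is stated for the deposited FPKM. Read counts, unigene lengths and sequences were not analysed here. The counting error of one FPKM value is therefore unknown, and depth is given only as relative depth.

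Unigenes that reached 1 FPKM in 3 of the 6 libraries were fitted as log2 (FPKM + 0.5) with limma 3.58.1 in R 4.3.3 (eBayes with trend and robust), which leaves 4 residual degrees of freedom. Tests were two-sided, with Benjamini-Hochberg adjustment over all unigenes tested. Changes between stages were fitted over 18 libraries (12 degrees of freedom), on the unigenes tested at S1. Lists were described by counts and medians, with no set test. The code was tested on simulated data.

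The members and lists were chosen with earlier results of these data known. Named were the 7 unigenes matched here, through the fold changes of the study, to EIX receptor 1/2, chitinase, RPM1, PGK, GST, DFR and its paralogue, the 7 of its qPCR table, per phenylpropanoid class up to 2 called unigenes per direction with no overlap of the groups and every member of classes of 5 or fewer, up to 1 called unigene per pathway list and direction, and the most abundant and the largest unannotated unigenes. Others named, such as those of a component shared with a named unigene, were chosen after their values were seen. Alternatives were other offsets, filters and scalings, all 30 libraries in 1 fit, library weights, the replicate number as a block, and each library left out in turn. Rescaling without the abundant unigenes was chosen after seeing the data. Of the enzyme classes of the phenylpropanoid table, 1 enters the counts but is not reported here on its own.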

Additional observations from a re-analysis of the deposited data

Results flagged for a closer look

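The difference of LR minus LB changed with stage, by the limma test of the change itself over 18 libraries, in 1165 unigenes between S1 and S2 and in 5228 between S1 and S5. Values are the S1 difference minus that of the later stage, in log2 (FPKM + 0.5). Against S2, the CAD-class unigenes TRINITY_DN94308_c2_g4, TRINITY_DN94308_c2_g5 and TRINITY_DN79928_c2_g1 had -4.61, -4.37 and -4.78, so LR was lower relative to LB at S1 than at S2.

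Against S5, the change was below 0 in DFR, TRINITY_DN65703_c4_g1 (-9.73), its paralogue TRINITY_DN65703_c4_g2 (-9.59), LDOX, TRINITY_DN68066_c0_g2 (-9.41), CHS, TRINITY_DN73389_c1_g2 (-8.26), and GST, TRINITY_DN100219_c3_g1 (-7.35). It was also below 0 in the CAD-class unigene TRINITY_DN79928_c2_g1 (-6.64) and the beta-glucosidase TRINITY_DN80120_c0_g1 (-2.84). It was above 0 in the chitinase TRINITY_DN77127_c1_g3 (5.36) and EIX receptor 1/2, TRINITY_DN95128_c2_g1 (4.40). The causes were not tested.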

How the results depend on the processing

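The count of 28206 unigenes called at S1 stayed within 1.5 times under the other offsets, scalings, weights, the lower filter and the fit of all 30 libraries, and was 15070 with an FPKM of 5 or more in 3 libraries, which tests fewer unigenes. Leaving out each library in turn gave 21925 to 25772 unigenes, 10229 to 13368 components (10229 without LB1-3), 30 to 42 phenylpropanoid unigenes (30 without LB1-1), 769 to 930 unigenes changed against S2 (769 without LR1-1) and 3792 to 4415 against S5. An offset of 0.1 gave 699 changed against S2, for which the cause was not tested. With an FPKM of 5 or more asked of the other species, 1962 unigenes of LB and 1172 of LR were listed at 0 in one species only, and leaving out a library gave 7306 to 8907 and 4379 to 5579. Of the 90 named unigenes called, 65 were called in all 6 fits that left out a library and 77 after median-of-ratios scaling. The cinnamoyl-CoA reductase unigene TRINITY_DN84683_c0_g2, not called at 0.06, changed sign with library weights (-0.14), without LB1-3 (-0.57) and without LR1-2 (-0.38), and lay between -0.57 and 0.51 over the omissions. TRINITY_DN91848_c1_g3, not called at -1.45, did so without LR1-1 (0.21) and lay between -2.53 and 0.21. The causes were not tested. The replicate numbers did not pair the samples, with correlations of same-numbered libraries of -0.00768, 0.00364 and -0.00384. With the number as a replicate block, 23718 unigenes, 11133 components and 41 phenylpropanoid unigenes were called, and 972 and 4727 changed against S2 and S5. With 3 libraries per species, shallower in LR, low unigenes are the least certain.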
